A study of Rattus norvegicus with 23 samples.

Results

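Fatty acids enter liver cells after lipases release them from circulating lipoproteins, cross the plasma membrane with the help of transporters and are carried through the cytosol by small binding proteins. The 10 genes described here cover these steps: the fatty acid binding proteins Fabp1, Fabp2, Fabp4, Fabp5 and Fabp7, the transport proteins Cd36, Slc27a2 and Slc27a4, and the lipases Lpl and Lipc. They are 10 of 14217 genes measured on rat expression arrays, and each was taken as the probe set that names only that gene, with the highest mean over 23 arrays where there were several. Each of the 10 had exactly 1 such probe set. A further probe set names Cd36 together with Cd36l1 and was left out of the tests, and its group means ran from 9.38 in Kupffer cell (KC) monolayers to 12.65 in hepatocyte monolayers (HM).

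The arrays cover 8 groups of rat liver cells. Liver sinusoidal endothelial cells (LSECs) at day 12 came from the 3DHLK model, which holds hepatocytes, LSECs and KCs, and from the 3DHL model, which holds hepatocytes and LSECs. Hepatocytes at day 12 came from the 3DHLK model, the 3DHL model, collagen sandwich (CS) cultures and HM, and KCs came from the 3DHLK model at day 12 and from monolayers at day 3. The 3DHLK KCs have 2 arrays and every other group has 3. Hepatocytes and LSECs were isolated from female Lewis rats, whereas the KCs were bought as cryopreserved rat cells, and the cells of the models were pulled apart with antibody-coated beads before RNA was extracted. The labels do not tie replicates to animals or cultures, so each p-value rests on differences between arrays that may be technical repeats. In bulk RNA of this kind, fewer cells of a type and less RNA per cell cannot be told apart.

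In the liver, Fabp1 is the main cytosolic carrier of long-chain fatty acids in hepatocytes, and it is a target of the receptor PPAR alpha. Slc27a2 and Slc27a4 couple uptake to activation of fatty acids to their CoA esters, and Cd36 is a scavenger receptor that also takes up long-chain fatty acids. Lipc is the hepatic lipase that hepatocytes secrete, and Lpl hydrolyses triglycerides in lipoproteins and is made mainly by muscle, adipose tissue and macrophages. Fabp4 and Fabp5 are the binding proteins of adipocytes and macrophages, Fabp2 is the intestinal one and Fabp7 the one of brain glia.

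The labelled cell types were checked against marker lists, on the log2 scale of the robust multichip average (RMA) that all values below share. The mean of 19 hepatocyte markers was 13.24 in 3DHLK LSECs, 13.04 in 3DHL LSECs and 12.34 in 3DHLK KCs, against 13.06 in HM and 7.5 in KC monolayers. The mean of 17 endothelial markers was 6.47 in 3DHLK LSECs, 6.29 in 3DHL LSECs, 6.76 in 3DHLK hepatocytes, 6.32 in 3DHL hepatocytes and 6.20 in HM. It was highest in KCs, at 7.0 in the 3DHLK model and 7.27 in monolayers. In LSECs against hepatocytes of the 3DHLK model, 6 of the 17 were called higher (34.7% of all genes) and 5 lower (25.7%). In the 3DHL model 1 was higher (18.5%) and 2 lower (21.9%). Among them Stab2 averaged 5.98 in 3DHLK LSECs, 5.46 in 3DHLK hepatocytes and 5.77 in HM. Fcgr2b averaged 7.36 in 3DHLK LSECs, 7.44 in 3DHLK hepatocytes and 4.80 in HM. The macrophage marker Adgre1 averaged 5.38 in 3DHLK KCs and 12.91 in KC monolayers, against the label of the 3DHLK KCs. The LSEC groups had hepatocyte marker means near that of HM and endothelial markers no higher on average than the hepatocytes of the same model. All groups are called by their labels below. Eif2s3y, a gene of the Y chromosome, averaged 8.27 in 3DHLK hepatocytes and 9.14 in KC monolayers, and between 3.42 and 3.51 in the other 6 groups. Array medians ran from 7.41 to 7.53 and array first quartiles from 5.87 to 6.28. Group means near these first quartiles include Lipc (6.14) and Slc27a2 (6.04) in KC monolayers, Fabp4 in HM (5.89) and Lpl in 3DHL hepatocytes (6.04). Signal over background is unknown there, which limits how exact fold changes against those means are. Calls below come from limma on all 14217 genes, at an adjusted p under 0.05.

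Upstream DNA is shown for Fabp1, Slc27a2, Fabp2 and Lipc, since each of these was called in the same direction in CS and in 3DHL hepatocytes against HM. RefSeq promoters on build GRCr8 matched 7 of the 10 genes. They were searched on both strands, over the 250 bases before the start of the gene, for a direct repeat of AGGNCA with 1 base between the copies (the form that PPAR and RXR bind), the single site AGGTCA, which such a repeat can contain, CAAAGTTCA (a site of HNF4), GTTAAT (part of a site of HNF1) and TATAAA. Matches are in capitals. The windows are chr4:104749090-104749339 on the plus strand for Fabp1, chr3:134257851-134258100 on the plus strand for Slc27a2, chr2:213724379-213724628 on the plus strand for Fabp2 and chr8:80516286-80516535 on the minus strand for Lipc.
Fabp1: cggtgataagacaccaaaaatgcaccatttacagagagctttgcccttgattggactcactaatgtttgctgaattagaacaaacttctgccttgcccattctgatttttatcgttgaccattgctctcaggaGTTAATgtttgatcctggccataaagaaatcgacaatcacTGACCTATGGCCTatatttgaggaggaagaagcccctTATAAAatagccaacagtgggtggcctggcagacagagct
Slc27a2: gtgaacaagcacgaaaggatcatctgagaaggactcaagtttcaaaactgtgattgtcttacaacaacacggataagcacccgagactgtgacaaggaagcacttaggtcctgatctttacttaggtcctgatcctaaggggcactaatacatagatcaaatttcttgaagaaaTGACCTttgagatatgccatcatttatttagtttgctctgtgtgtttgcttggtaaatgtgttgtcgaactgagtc
Fabp2: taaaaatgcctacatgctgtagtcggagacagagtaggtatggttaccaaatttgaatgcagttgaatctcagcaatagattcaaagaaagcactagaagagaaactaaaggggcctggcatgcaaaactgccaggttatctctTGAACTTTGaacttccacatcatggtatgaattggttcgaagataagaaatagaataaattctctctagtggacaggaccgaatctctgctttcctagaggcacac
Lipc: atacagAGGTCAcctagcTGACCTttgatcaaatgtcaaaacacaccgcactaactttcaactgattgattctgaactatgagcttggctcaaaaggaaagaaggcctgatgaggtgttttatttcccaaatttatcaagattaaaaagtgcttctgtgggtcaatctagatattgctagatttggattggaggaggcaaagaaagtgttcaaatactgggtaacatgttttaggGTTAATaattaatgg
The direct repeat lay 77 to 65 bases before the start of Fabp1, on the opposite strand, and in no other member's window, while 0.368% of all 33469 windows held it. The single site AGGTCA was in 4 of the 7 members, Fabp1, Slc27a2, Lipc and Fabp7, and in 14.1% of all windows. The HNF4 letters were found before Fabp2 and in 0.281% of all windows, GTTAAT before Fabp1 and Lipc and in 6.45%, and TATAAA before Fabp1 and Cd36 and in 12.9%. A match describes the letters of a window and is not evidence that a factor binds there.

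The members fell into clearly different patterns over the 8 groups. Slc27a2 was highest in CS and in hepatocytes of the 3D models, Fabp1 in these and in 3DHLK LSECs, Lipc was highest in HM, Lpl stood far above every other group in 3DHLK hepatocytes, and Fabp4 was highest in KC monolayers. Of the hepatocyte, macrophage and stromal marker means, the 8 group means of Cd36 (Pearson r = 0.95), Lipc (0.90), Fabp2 (0.89) and Slc27a2 (0.87) followed the hepatocyte one most closely, those of Fabp4 the macrophage one (0.78) and those of Lpl the stromal one (0.92). The mean of 17 endothelial markers was closer still to Fabp4 (0.99). Fabp1 had r = 0.54 with stromal and 0.45 with hepatocyte markers, and the highest r with any of these 4 means or the adipocyte mean was 0.45 for Fabp5 (adipocyte), 0.26 for Slc27a4 (hepatocyte) and 0.32 for Fabp7 (adipocyte). These r are descriptions over 8 group means that share arrays and preparation. Without the KC monolayers, which are low for all hepatocyte markers, r with hepatocyte markers was 0.12 for Cd36, 0.36 for Lipc, 0.47 for Fabp2 and 0.48 for Slc27a2. There Slc27a2 was closer to stromal markers (0.72), and Lpl had r = 0.93 with stromal and 0.82 with macrophage markers. Without the KC monolayers, Fabp4 had r = 0.59 with macrophage and 0.29 with stromal markers.

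**Figure D1:**
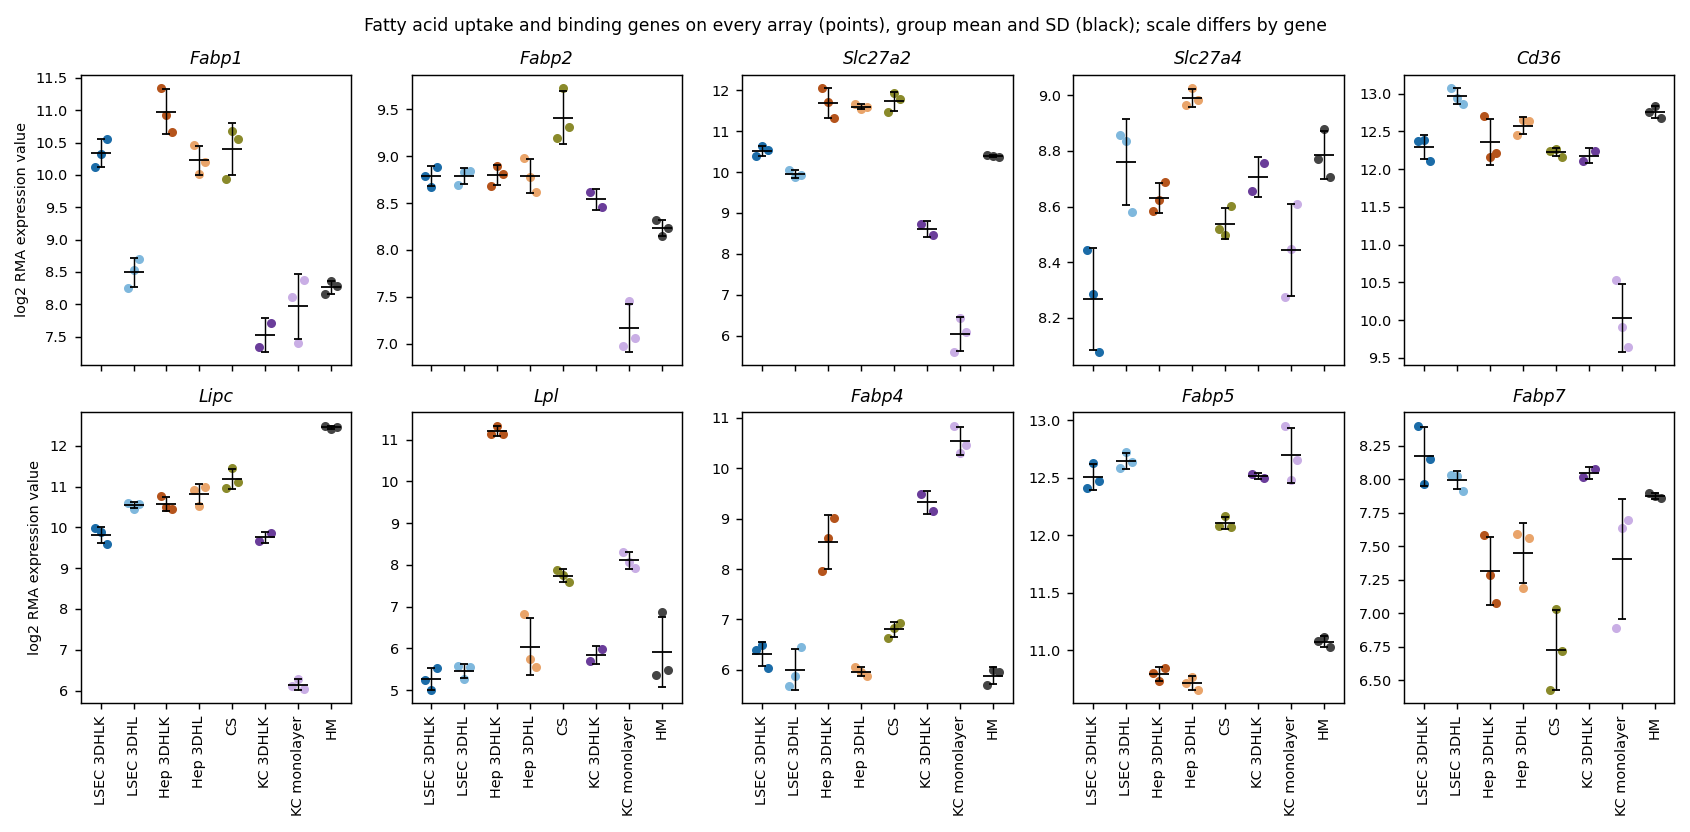
Log2 RMA value (vertical axis) of each of the 10 genes on every array (points) in the 8 groups, with the group mean and SD in black. Lpl lies between 11.13 and 11.33 in hepatocytes (Hep) of the 3DHLK model and at or under 8.32 in every other group, and the axis range differs between panels.

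Fabp1, the liver binding protein, was higher in CS and in 3DHL hepatocytes than in HM, and higher in the 3DHLK than in the 3DHL model in LSECs. It read 9.94, 10.69 and 10.56 in CS and 10.47, 10.01 and 10.20 in 3DHL hepatocytes, against 8.16, 8.36 and 8.28 in HM. Neither CS nor 3DHL overlapped HM. Fabp1 rose by 2.13 (SE 0.23, adjusted p = 5.71e-07) from HM in CS, 4.38-fold, and by 1.96 (adjusted p = 4.6e-06) in 3DHL hepatocytes. In LSECs it was 10.12, 10.33 and 10.56 in the 3DHLK model, against 8.25, 8.53 and 8.70 in the 3DHL model, with no overlap. The change was 1.84 (SE 0.23, adjusted p = 1.71e-05), 3.58-fold, and it ranged from 1.72 to 1.95 over the alternatives tried. In hepatocytes it was 11.35, 10.93 and 10.66 in the 3DHLK model, against 10.47, 10.01 and 10.20 in the 3DHL model, a change of 0.75 (adjusted p = 0.0345). That hepatocyte call was lost without 3DHL array 2 (adjusted p = 0.161) or 3 (0.0859), or without 3DHLK array 1 (0.183) or 2 (0.061). LSECs were lower than hepatocytes of the same model for Fabp1, by 0.65 in the 3DHLK model (adjusted p = 0.0194, and 0.115 without array 1 of 3DHLK hepatocytes or 0.08 without array 1 of 3DHLK LSECs) and by 1.73 in the 3DHL model (adjusted p = 6.34e-06). 3DHLK KCs had the lowest values, 7.34 and 7.72, against 8.11, 7.41 and 8.38 in KC monolayers, and the groups overlapped.

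Fabp2, the intestinal binding protein, was highest in CS. It was 9.19, 9.73 and 9.31 in CS, against 8.32, 8.15 and 8.23 in HM, and rose by 1.18 (SE 0.14, adjusted p = 3.03e-06). In 3DHL hepatocytes it was 0.55 above HM (adjusted p = 0.0132), a call lost without HM array 2 (0.0568) or 3DHL array 1 (0.0815), and it was 0.62 below CS (adjusted p = 0.00313). Its means in LSECs and hepatocytes of both 3D models lay within 8.78 to 8.79, and none of the 4 comparisons between those groups was called, with the interval of the 3DHLK change running from -0.30 to 0.29 in LSECs and from -0.29 to 0.30 in hepatocytes. It was 1.37 higher in 3DHLK KCs than in KC monolayers (adjusted p = 1.41e-07). So were all 19 measured hepatocyte markers (44.5% of all genes called higher), and their part in this result was not tested.

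Slc27a2, the liver fatty acid transport protein that also activates very long chain fatty acids, ran with Fabp1 in the hepatocyte cultures. It was 11.47, 11.93 and 11.79 in CS and 11.66, 11.54 and 11.59 in 3DHL hepatocytes, against 10.41, 10.39 and 10.38 in HM. It rose by 1.34 in CS (SE 0.18, adjusted p = 1.13e-05) and by 1.21 in 3DHL hepatocytes (adjusted p = 9.81e-05). In LSECs it was 10.38, 10.64 and 10.53 in the 3DHLK model, against 10.06, 9.87 and 9.92 in the 3DHL model. The groups did not overlap, yet the difference of 0.57 missed the threshold (adjusted p = 0.059), and it was called in a fit to those 6 arrays (adjusted p = 0.00475) and in a fit without the KC monolayers (0.0107). LSECs were lower than hepatocytes, by 1.18 in the 3DHLK model (adjusted p = 1.43e-05) and by 1.65 in the 3DHL model (5.54e-07). In KCs it was 8.73 and 8.46 in the 3DHLK model, against 5.59, 6.44 and 6.08 in monolayers, a 5.91-fold difference (2.56, SE 0.20, adjusted p = 3.15e-10). All 19 measured hepatocyte markers were also called higher in 3DHLK KCs than in monolayers (44.5% of all genes). Their part in this result was not tested.

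Slc27a4, a more widely expressed fatty acid transport protein, varied least of the 10, with group means from 8.27 to 8.99. It was 8.44, 8.28 and 8.08 in 3DHLK LSECs, against 8.86, 8.84 and 8.58 in 3DHL LSECs. It fell by 0.49 there (SE 0.11, adjusted p = 0.00828), a call lost without array 1 of 3DHL LSECs (0.06) or array 3 of 3DHLK LSECs (0.077). In hepatocytes it was 8.58, 8.62 and 8.69 in the 3DHLK model, against 8.96, 9.03 and 8.98 in the 3DHL model, without overlap. That change of -0.36 (adjusted p = 0.0422) was not called when any 1 of the 6 arrays was left out (adjusted p from 0.0703 to 0.143), nor with cyclic loess (0.172), housekeeping centring (0.0561), trended eBayes (0.0509) or the replicate number as a block (0.0579). 3DHLK LSECs were lower than hepatocytes of that model by 0.36 (adjusted p = 0.00923, and 0.0716 without array 3 of 3DHLK LSECs or 0.0507 with housekeeping centring). They were lower than KCs of the model by 0.44 (adjusted p = 0.0206, and 0.113 without that array, 0.0571 without KC array 1 or 0.172 without KC array 2, 0.0561 in a fit to those 5 arrays and 0.0759 with housekeeping centring). KC monolayers were 0.34 below HM (adjusted p = 0.0109), a call lost without HM array 2 (0.0506) and in a fit to those 6 arrays (0.0992), while cyclic loess turned the difference to 0.050 (0.742) and housekeeping centring left -0.089 (0.563).

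Cd36, the fatty acid translocase, averaged 10.03 in KC monolayers and between 12.18 and 12.96 in the other 7 groups. It was 12.11 and 12.25 in 3DHLK KCs, against 10.53, 9.92 and 9.65 in KC monolayers, a change of 2.15 (SE 0.19, adjusted p = 2.18e-09). All 19 measured hepatocyte markers were called higher there too (44.5% of all genes), and their part in this result was not tested. KC monolayers were 2.72 below HM (adjusted p = 4.04e-12), at 10.53, 9.92 and 9.65 against 12.75, 12.84 and 12.67. In LSECs it was 12.38, 12.39 and 12.11 in the 3DHLK model, against 13.08, 12.94 and 12.87 in the 3DHL model, with no overlap. It fell by 0.67 (adjusted p = 0.0158), which was not called without array 1 of 3DHL LSECs (0.0881) or array 3 of 3DHLK LSECs (0.102). In CS it was 12.24, 12.27 and 12.17, against the HM values above, a difference of -0.53 (adjusted p = 0.0286) that was not called when any 1 of the 6 arrays was left out (adjusted p from 0.0516 to 0.0992).

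Lipc, the hepatic lipase, had the widest range of group means, 6.31 on the log2 scale. It was 10.97, 11.46 and 11.12 in CS and 10.92, 10.54 and 10.99 in 3DHL hepatocytes, against 12.49, 12.41 and 12.47 in HM. It fell by 1.27 in CS (SE 0.14, adjusted p = 1.18e-06) and by 1.64 in 3DHL hepatocytes (adjusted p = 7.96e-08), opposite in direction to Fabp1 and Slc27a2 on the same arrays. Lipc was 9.97, 9.88 and 9.60 in 3DHLK LSECs, against 10.60, 10.45 and 10.58 in 3DHL LSECs, and fell by 0.72 (adjusted p = 0.00235). In KCs it was 9.66 and 9.86 in the 3DHLK model, against 6.10, 6.29 and 6.04 in monolayers, 12.3-fold higher (3.62, SE 0.16, adjusted p = 1.37e-14). The KC monolayers lay 79.4-fold below HM (-6.31, adjusted p = 8.92e-20). All 19 measured hepatocyte markers were also called higher in 3DHLK KCs than in monolayers (44.5% of all genes). Their part in the Lipc result was not tested.

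**Figure D2:**
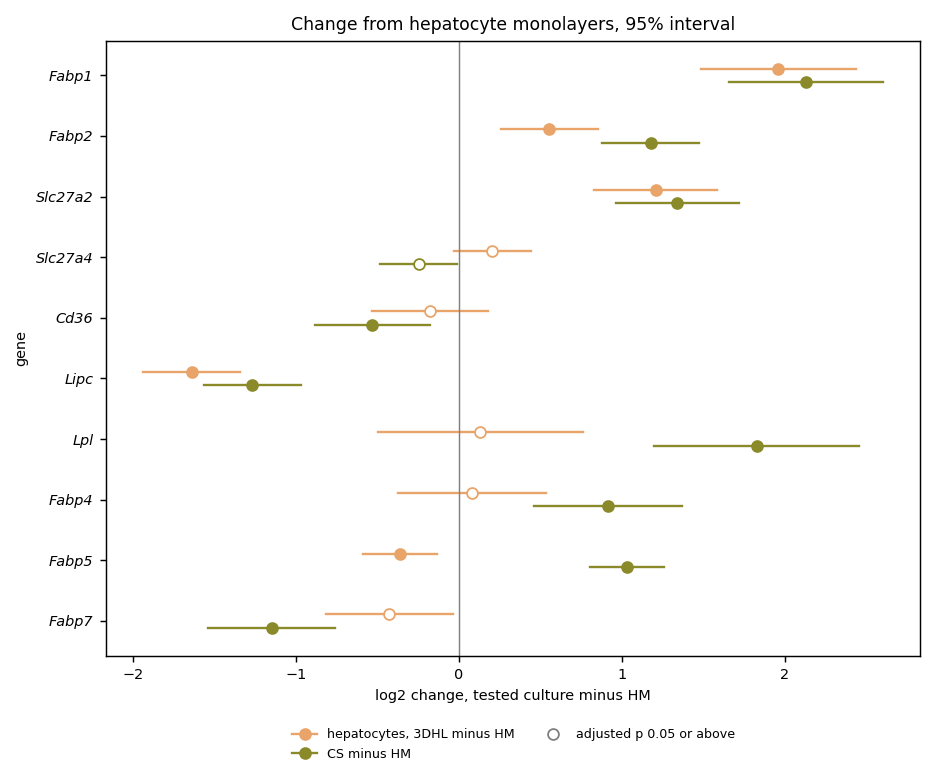
Log2 change from HM (horizontal axis, points, with 95% intervals) of each gene in 3DHL hepatocytes and in CS, with open points at an adjusted p of 0.05 or above. Fabp1 and Slc27a2 lie right of 0 in both cultures and Lipc left of 0 in both, while Lpl, Fabp4 and Fabp5 lie right of 0 in CS.

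Lpl, lipoprotein lipase, gave the largest change of the 10 genes between the 3D models. It was 11.13, 11.33 and 11.13 in 3DHLK hepatocytes, against 6.82, 5.75 and 5.56 in 3DHL hepatocytes. Every 3DHLK value lay more than 4 log2 units above the highest 3DHL value. Lpl rose by 5.16 (SE 0.30, adjusted p = 6.12e-11), 35.7-fold. In LSECs it was 5.24, 5.01 and 5.53 in the 3DHLK model, against 5.58, 5.27 and 5.54 in the 3DHL model, and the difference of -0.21 had an interval from -0.84 to 0.42. The change in LSECs minus that in hepatocytes was -5.36 (SE 0.43, adjusted p = 2.44e-08). On the same hepatocyte arrays the mean of 18 stromal markers was 10.21 in the 3DHLK model and 8.14 in the 3DHL model, with 12 of the 18 called higher (7.72% of all genes) and 0 lower, and array means from 10.08 to 10.36 in the 3DHLK model against 8.06 to 8.26 in the 3DHL model. The matrix gene Dcn averaged 9.64 in 3DHLK hepatocytes and 5.84 in 3DHL hepatocytes. The mean of 17 macrophage markers was 7.98 in 3DHLK hepatocytes, with array means from 7.77 to 8.22, and 6.89 in 3DHL hepatocytes, with array means from 6.77 to 7.08, and 11 of the 17 were called higher and 0 lower. Eif2s3y was high on these 3DHLK arrays too, and the part of these markers and of Eif2s3y in the Lpl result was not tested. Of 8 adipocyte markers 2 were called higher in 3DHLK hepatocytes and 0 lower. These were Cfd, at 7.39 in 3DHLK and 6.32 in 3DHL hepatocytes, and Plin4, at 6.56 in 3DHLK and 6.10 in 3DHL hepatocytes, while Adipoq averaged 6.58 in 3DHLK and 6.63 in 3DHL hepatocytes.

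Lpl was also above HM in CS, at 7.89, 7.75 and 7.58 against 5.37, 6.88 and 5.49, a rise of 1.83 (SE 0.30, adjusted p = 0.000126). HM array 2, which has the highest Lpl of the HM arrays, also had the highest stromal mean of that group, 8.68 against 6.83 and 7.82. The same array had the highest macrophage mean of the HM arrays, 7.30. CS array 1 had the highest Lpl and the highest stromal mean of CS. Among 3DHL hepatocytes, array 1 had the highest Lpl (6.82) at a stromal mean of 8.08. There, array 3 had the highest stromal mean (8.26) and the lowest Lpl (5.56). Stromal means were 9.33, 7.99 and 8.52 on the CS arrays, and 10 of 18 stromal markers were called higher in CS (11.1% of all genes) and 1 lower; their part in the result was not tested. In KCs, Lpl was 5.68 and 5.99 in the 3DHLK model, against 8.32, 8.07 and 7.93 in monolayers, a fall of 2.27 (SE 0.34, adjusted p = 4.74e-06). All 17 macrophage and 8 of 18 stromal markers were called lower there too (20.8% of all genes), and 0 higher (44.5%). The part of these markers in the fall of Lpl was not tested. KC monolayers were 2.19 above HM (adjusted p = 1.31e-06).

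Fabp4, the adipocyte and macrophage binding protein, rose like Lpl in 3DHLK hepatocytes and was highest in KC monolayers. It was 7.97, 8.61 and 9.02 in 3DHLK hepatocytes, against 6.06, 5.95 and 5.89 in 3DHL hepatocytes, and rose by 2.57 (SE 0.22, adjusted p = 1.94e-08), 5.93-fold. On these arrays 11 of 17 macrophage and 12 of 18 stromal markers were also called higher (7.72% of all genes), and Eif2s3y averaged 8.27. The part of these markers and of Eif2s3y in the Fabp4 result was not tested. In LSECs Fabp4 was 6.38, 6.50 and 6.04 in the 3DHLK model, against 5.68, 5.87 and 6.46 in the 3DHL model, and these overlapped. The change in LSECs minus that in hepatocytes was -2.26 (SE 0.31, adjusted p = 3.35e-05). KC monolayers read 10.84, 10.30 and 10.46, against 5.69, 6.0 and 5.97 in HM, 25.1-fold more (adjusted p = 2.6e-14). 3DHLK KCs were 9.49 and 9.16, which is 1.21 below the monolayers (SE 0.25, adjusted p = 0.000185). 3DHLK LSECs were lower than 3DHLK KCs by 3.02 (adjusted p = 1.15e-08). On the arrays of the 3DHLK KCs the macrophage mean was 7.02, against 12.12 in monolayers. Of the 17 markers 0 were called higher (44.5% of all genes) and 17 lower (20.8%). The 8 group means of Fabp4 had r = 0.99 with the mean of 17 endothelial markers, which was 7.0 in 3DHLK KCs, 7.27 in KC monolayers and 6.20 in HM. Fabp4 in 3DHLK hepatocytes was below 3DHLK KCs by 0.79 (adjusted p = 0.0097, and 0.0682 without array 1 of 3DHLK hepatocytes, 0.107 without array 1 of 3DHLK KCs or 0.0642 with cyclic loess).

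**Figure D3:**
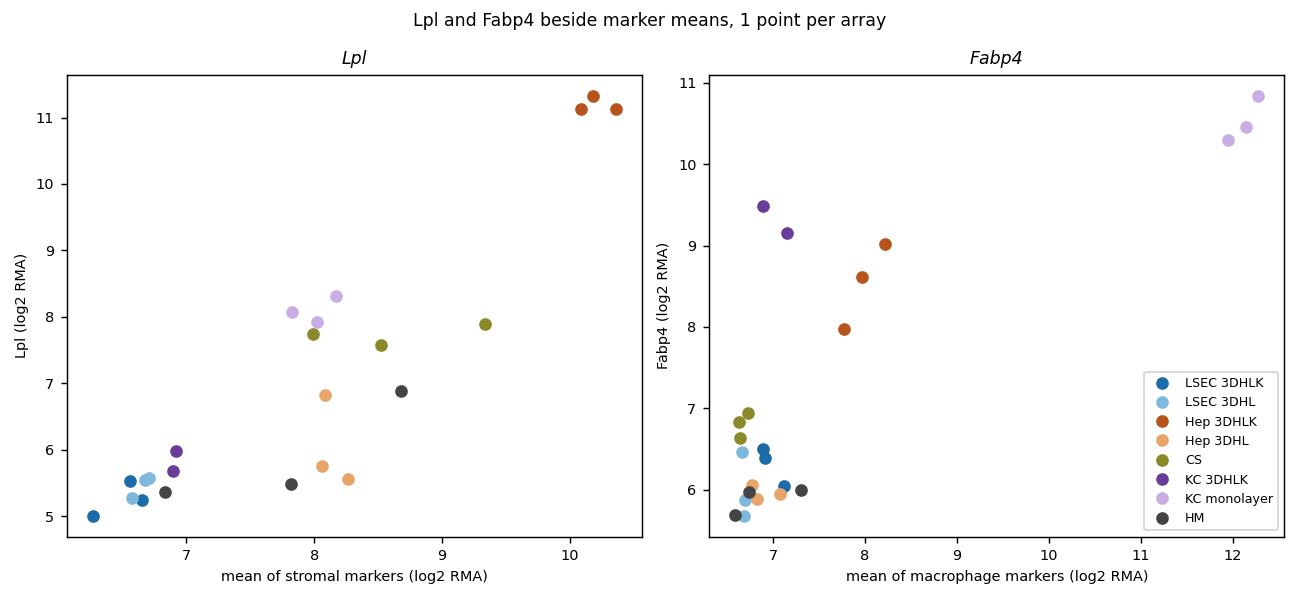
Log2 RMA value of Lpl against the mean of 18 stromal markers (left) and of Fabp4 against the mean of 17 macrophage markers (right), 1 point per array, coloured by group. The 3 arrays of 3DHLK hepatocytes (Hep) lie alone at a stromal mean above 10, and the 2 arrays of 3DHLK KCs have Fabp4 above 9 at a macrophage mean near that of HM.

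Fabp5, the epidermal type binding protein that macrophages also make, was high in KCs and higher in LSECs than in hepatocytes of both 3D models. It was 12.41, 12.63 and 12.47 in 3DHLK LSECs, against 10.80, 10.73 and 10.85 in hepatocytes of the same model, and the difference of 1.71 (SE 0.11) had an adjusted p of 4.41e-11. In the 3DHL model LSECs were 12.58, 12.72 and 12.64, against 10.72, 10.77 and 10.65 in hepatocytes, a difference of 1.93 (adjusted p = 2.14e-11). Its change from the 3DHL to the 3DHLK model was not called, with an interval of -0.37 to 0.09 in LSECs and of -0.15 to 0.31 in hepatocytes. High Fabp5 was not particular to LSECs, since its group mean was highest in KC monolayers, at 12.69. It averaged 12.51 in 3DHLK KCs and 12.50 in 3DHLK LSECs, and that difference was not called (interval -0.26 to 0.24). KC monolayers were 1.62 above HM for Fabp5 (adjusted p = 1.53e-11), and 3DHLK hepatocytes were 1.72 below 3DHLK KCs (adjusted p = 3.9e-10). CS, at 12.08, 12.17 and 12.07 against 11.08, 11.12 and 11.02 in HM, was higher by 1.03 (adjusted p = 4.86e-07). 3DHL hepatocytes were lower than HM by 0.36 (adjusted p = 0.035), and the call was lost when any 1 of the 6 arrays was left out (adjusted p from 0.07 to 0.126) and with the replicate number as a block (0.0508).

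Fabp7, the binding protein of brain glia, had group means between 6.73 and 8.17. It was 6.43, 7.03 and 6.72 in CS, against 7.89, 7.87 and 7.86 in HM, and fell by 1.15 (SE 0.19, adjusted p = 0.000111). It was higher in LSECs than in hepatocytes by 0.86 in the 3DHLK model (adjusted p = 0.000605) and by 0.55 in the 3DHL model (adjusted p = 0.0258). The 3DHL call was lost without 3DHL hepatocyte array 2 (0.123) or LSEC array 1 (0.0688) or 2 (0.0679), and with cyclic loess (0.0508). 3DHL hepatocytes were 0.72 above CS (adjusted p = 0.00822, and 0.0601 without CS array 1). KC monolayers were 0.47 below HM (adjusted p = 0.0315), and the call was lost without HM array 1 (0.068), 2 (0.0612) or 3 (0.0591), or without KC monolayer array 1, where the difference was -0.21 (0.262). It was also lost in a fit to those 6 arrays (0.107) and after housekeeping centring (-0.21, 0.376).

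The counts of members called are read here against the share of all 14217 genes called in the same comparison. In CS against HM, 9 of the 10 members were called, where 21.8% of all genes were, and 6 were higher (11.1% of all genes) and 3 lower (10.7%). The median change of the members there was 0.97, against 0.04 over all genes. In 3DHL hepatocytes against HM, 5 of 10 were called (11.7% of all genes), 3 higher (7.04%) and 2 lower (4.70%), and in 3DHL hepatocytes against CS, 6 of 10 (21.8%), 2 higher (12.8%) and 4 lower (9.03%). From the 3DHL to the 3DHLK model 4 of 10 were called in LSECs (7.47%), 1 higher (3.58%) and 3 lower (3.89%). In hepatocytes it was 4 of 10 (11.5%), 3 higher (7.72%) and 1 lower (3.76%). The LSEC change minus the hepatocyte change was called for 3 members (10.3%), higher for Fabp1 (3.51%; lost without any 1 of 8 of the 12 arrays, adjusted p from 0.0532 to 0.103) and lower for Fabp4 and Lpl (6.81%). Between LSECs and hepatocytes, 8 of 10 were called in the 3DHLK model (60.4%), 2 higher (34.7%) and 6 lower (25.7%), and 4 of 10 in the 3DHL model (40.4%), 2 higher (18.5%) and 2 lower (21.9%).

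**Figure D4:**
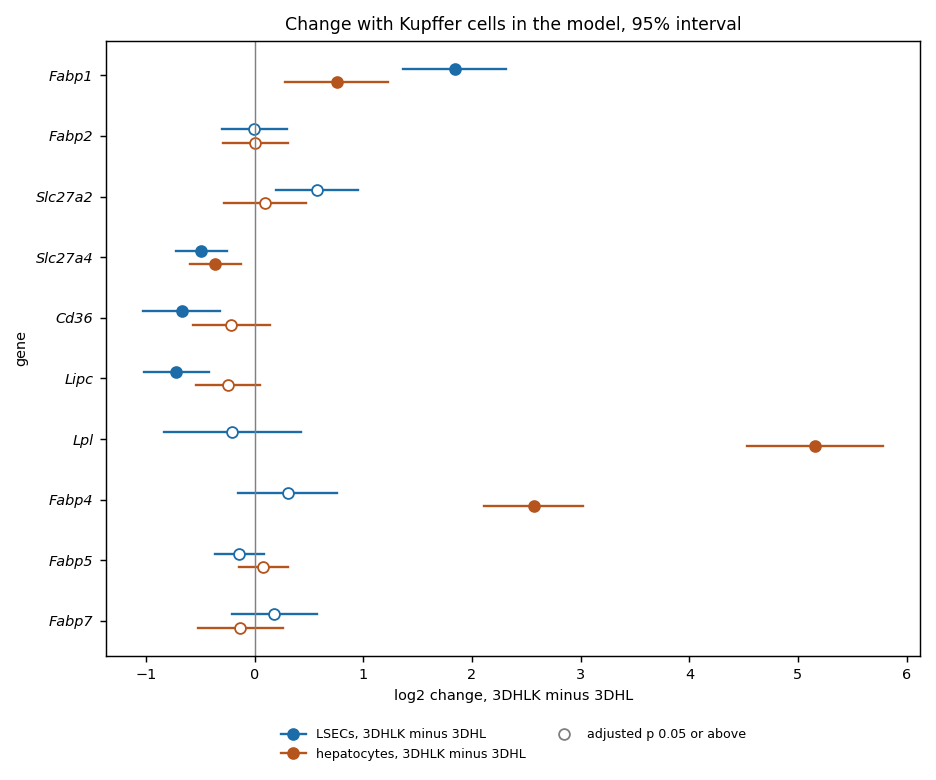
Log2 change from the 3DHL to the 3DHLK model (horizontal axis, points, with 95% intervals) of each gene in LSECs and in hepatocytes, with open points at an adjusted p of 0.05 or above. Lpl and Fabp4 lie far to the right of 0 only for hepatocytes, with changes of 5.16 and 2.57, while Fabp1 lies right of 0 for both.

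The 4 comparisons with KCs differed widely in the share of all genes called. 3DHLK KCs differed from monolayers in 7 of 10 members, where 65.2% of all genes were called, with 5 higher (44.5% of all genes) and 2 lower (20.8%). KC monolayers differed from HM in 9 of 10 (70.2%), with 3 higher (25.4%) and 6 lower (44.7%). 3DHLK LSECs differed from 3DHLK KCs in 4 of 10 (15.1%), with 2 higher (9.73%) and 2 lower (5.35%). 3DHLK hepatocytes differed from 3DHLK KCs in 7 of 10 (56.5%), with 4 higher (25.9%) and 3 lower (30.6%). The median change of all genes was 0.27 in 3DHLK KCs minus monolayers, 0.12 after cyclic loess and -0.04 after centring on housekeeping genes. With those scalings Fabp5 was called lower in 3DHLK KCs, by 0.89 (adjusted p = 4.59e-08) and 0.49 (0.000369), and Fabp1 lower by 0.85 (0.00559) and 0.75 (0.011), where the values as deposited gave -0.18 and -0.44 without a call. Leaving out KC monolayer array 2 also gave calls for Fabp5 (-0.29, adjusted p = 0.0305) and Fabp1 (-0.72, 0.0124). Fabp7 was 0.64 higher in 3DHLK KCs than in monolayers (adjusted p = 0.0109), a call lost without KC monolayer array 1 (0.38, 0.0702) or 3DHLK KC array 2 (0.0627), in a fit to those 5 arrays (0.102) and after housekeeping centring (0.33, 0.24).

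**Figure D5:**
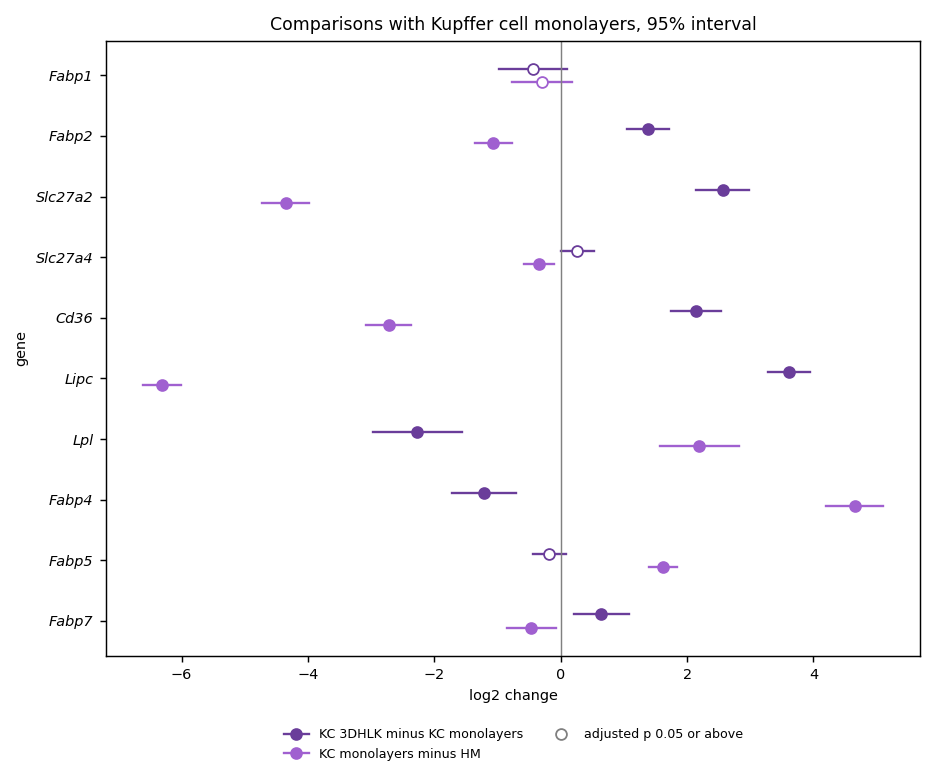
Log2 change (horizontal axis, points, with 95% intervals) of each gene in 3DHLK KCs minus KC monolayers and in KC monolayers minus HM, with open points at an adjusted p of 0.05 or above. Both comparisons use the same 3 KC monolayer arrays, and Lipc shows the widest pair, 3.62 and -6.31.

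Lists of other genes of the pathway were read from the same fit. The shares of all genes called higher and lower were 11.1% and 10.7% in CS against HM, 7.04% and 4.70% in 3DHL hepatocytes against HM, 3.58% and 3.89% in 3DHLK against 3DHL LSECs, and 7.72% and 3.76% in 3DHLK against 3DHL hepatocytes. Of 23 measured PPAR alpha targets, 11 were called higher and 0 lower in 3DHLK against 3DHL LSECs, with a median of 0.45 against 0.04 over all genes, and the largest rises were Pdk4, which restrains glucose oxidation (1.10, adjusted p = 0.00083), and Acaa2, a mitochondrial thiolase (1.01, 0.00103). In hepatocytes 1 of 23, Vnn1 (0.43, adjusted p = 0.0417), was called higher and 0 lower in the 3DHLK against the 3DHL model, at a median of -0.04 against -0.08 over all genes. The LSEC change exceeded the hepatocyte change, by the test of their difference, for 10 of the 23 (3.51% of all genes), and was below it for 0 (6.81%). In CS against HM 15 of the 23 were higher and 0 lower (median 0.58), led by the fatty acid hydroxylases Cyp4a1 (1.97, adjusted p = 1.22e-05) and Cyp4a3 (1.78, 9.06e-08), and in 3DHL hepatocytes against HM 14 were higher and 0 lower (median 0.69).

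The receptor gene Ppara was higher by 1.18 in CS than in HM (adjusted p = 1.99e-05) and by 0.72 in 3DHLK than in 3DHL LSECs (adjusted p = 0.00881). Rxra, which codes for its partner, was higher by 1.02 in CS than in HM (adjusted p = 0.000102) and by 0.80 in 3DHLK than in 3DHL LSECs (adjusted p = 0.00349). Of 19 lipases and lipase cofactors, 9 were higher and 0 lower in CS than in HM, led by the lipid droplet lipase Pnpla3 (2.23, adjusted p = 1.72e-08) and by Apoc2, the activator of lipoprotein lipase (2.02, 3.38e-10). In 3DHLK against 3DHL hepatocytes, where Lpl rose, 1 of the 19 was higher, Apoc1 (0.82, adjusted p = 0.00198), and 1 lower, Apoa5 (-0.53, 0.0262). Of 11 acyl-CoA synthetases, which activate fatty acids once inside the cell, 6 were higher and 0 lower in CS than in HM, and 2 were higher and 0 lower in 3DHLK against 3DHL LSECs. Of 16 other uptake and binding genes, 3 were higher and 1 lower in that LSEC comparison, the fall being Cav1, a caveolar coat protein (-2.20, adjusted p = 0.000225).

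The genes closest to members over the 23 arrays are given as descriptions, since arrays of a group share a culture. Fabp1 was closest to Hacl1, a peroxisomal lyase of fatty acid oxidation (r = 0.96), and to Acat1, a mitochondrial thiolase (0.93). Slc27a2 was closest to Creb3l3, a liver transcription factor (0.98). Lipc was closest to Krt20 (0.99), Lpl to Gucy1b1, a subunit of soluble guanylate cyclase (0.95), and Fabp5 to the chemokine Cxcl1 (0.97). Cd36 was closest to Met, the receptor of hepatocyte growth factor (0.98), and to Xist (0.98). Eif2s3y averaged 9.14 in KC monolayers, where Cd36 was lowest, and 8.27 in 3DHLK hepatocytes, where Cd36 averaged 12.36. The part of Xist and Eif2s3y in the Cd36 results was not tested. Fabp4 had no neighbour above 0.89, the value for Pycard, and Fabp7 none above 0.77, the value for Ptger3.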

How the data were processed

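Total RNA was amplified and hybridised to Affymetrix rat arrays. The authors passed the arrays through Simpleaffy quality checks and RMA in R, and the deposited values are log2 values after background correction, quantile normalization and summarization. No version of RMA is stated. No detection calls were used, so signal over background is unknown, and few arrays per group limit how precise each value is. Of 31099 probe sets, 57 were controls, 20826 named 1 gene in the probe table, 436 several and 9780 none. The 14217 genes named alone by a probe set were kept, by the probe set with the highest mean. limma 3.58.1 (R 4.3.3) was fitted to 8 group means over 23 arrays, with two-sided tests and Benjamini-Hochberg adjustment per contrast at 0.05. Groups followed the sample labels. The members and lists were chosen with earlier results of these data known. All members are named, with the 3 genes of highest r as candidates for likeness and, from 5 pathway lists, at most the 2 largest called rises and falls. Code was tested on simulated data. Alternatives were a fit to the compared groups, a fit without KC monolayers, replicate numbers as a block, averaged probe sets, a filter under the 30th percentile, cyclic loess, housekeeping centring, trended eBayes and leaving out each array. The numbers were not taken to pair samples. RefSeq promoters (GRCr8) came from a supplied table. Python 3.11.15 and matplotlib 3.10.9 drew the figures.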

Additional observations from a re-analysis of the deposited data

Results flagged for a closer look

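The change from the 3DHL to the 3DHLK model differed between LSECs and hepatocytes for 3 of the 10 genes, by limma's test of the difference itself. For Lpl the LSEC change minus the hepatocyte change was -5.36 (adjusted p = 2.44e-08), and for Fabp4 it was -2.26 (adjusted p = 3.35e-05). In 3DHLK against 3DHL hepatocytes, 12 of 18 stromal and 11 of 17 macrophage markers were also called higher (7.72% of all genes). Eif2s3y averaged 8.27 and 3.51 there. The groups labelled LSECs had hepatocyte marker means of 13.24 (3DHLK) and 13.04 (3DHL). The part of these markers and of Eif2s3y in the 3 results was not tested. For Fabp1 the LSEC change minus the hepatocyte change was 1.09 (adjusted p = 0.0332), with Fabp1 higher in the 3DHLK model under both labels. That call was lost without array 1 or 3 of 3DHL hepatocytes or 2 or 3 of 3DHLK hepatocytes. It was also lost without array 1 or 2 of 3DHL LSECs or 2 or 3 of 3DHLK LSECs. These are 8 of the 12 arrays (adjusted p from 0.0532 to 0.103).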

How the results depend on the processing

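Of 928 values from settings other than leaving out an array, 881 kept their direction and side of the threshold, 16 lost a call, 17 gained one and 14 changed sign. The sign changes were, with cyclic loess, Fabp2 in 3DHLK against 3DHL LSECs (0.031), Fabp2 in LSECs against hepatocytes of 3DHLK (0.024), Fabp4 in LSECs against hepatocytes of 3DHL (-0.069), Slc27a4 in 3DHLK KCs against monolayers (-0.0038), Lipc in LSECs against 3DHLK KCs (-0.017), and Fabp1 (0.27) and Slc27a4 (0.050, adjusted p = 0.742) in KC monolayers against HM, where Slc27a4 had been called at -0.34 (adjusted p = 0.0109). With housekeeping centring they were Fabp2 in 3DHLK against 3DHL hepatocytes (-0.024), in LSECs (0.012), in LSECs against hepatocytes of 3DHLK (0.045) and in the difference of the changes (0.035), Slc27a4 in KCs against monolayers (-0.048), and Fabp5 in LSECs against KCs (0.034). The replicate number as a block turned the last to 0.0025 and lost the calls of Fabp5 in 3DHL hepatocytes against HM (adjusted p = 0.0508) and of Slc27a4 in 3DHLK against 3DHL hepatocytes (0.0579), and it changed no other call. Lpl lies under the 30th percentile filter and has no value there. Leaving out 1 array gave 3 to 4 called members for 3DHL hepatocytes against HM (5 with all arrays). It gave 2 to 3 for 3DHLK against 3DHL hepatocytes (4) and 2 to 4 for 3DHLK against 3DHL LSECs (4). Differences near 0 that changed sign ranged from -0.018 to 0.14 (Fabp4) and -0.26 to 0.61 (Lpl) for 3DHL hepatocytes against HM, from -0.081 to 0.10 (Fabp2) and -0.085 to 0.28 (Slc27a2) for hepatocytes and -0.056 to 0.051 (Fabp2) for LSECs between the models, from -0.087 to 0.095 (Fabp2) and -0.19 to 0.20 (Fabp4) for LSECs against hepatocytes in the 3DHL model, from -0.067 to 0.045 (Fabp2) and -0.17 to 0.10 (Cd36) in the 3DHLK model, from -0.073 to 0.037 (Fabp5) and -0.038 to 0.17 (Lipc) for LSECs against KCs, and from -0.11 to 0.077 (Fabp2) for the difference of changes. The cause of these shifts was not tested. As a check of pairing, deviations from the group means were correlated between same-numbered arrays, and pairing was taken only where every one of at least 3 pairs exceeded 0.1, which no comparison met. In 3DHLK KCs against monolayers both of the 2 same-numbered pairs exceeded 0.1, at 0.22 to 0.24, against -0.24 to 0.067 for the other pairs. The 3DHLK KCs have 2 arrays, so their deviations from the group mean mirror each other. Some of the other pairs therefore repeat the same-numbered values with the opposite sign, and this comparison cannot decide whether samples are paired. Among comparisons with 3 pairs, 3DHLK against 3DHL LSECs came closest. Its same-numbered pairs were at 0.066 to 0.11, each above every other pair (-0.087 to 0.017).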
